A study of Mus musculus and Homo sapiens with 10 samples.

Results

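The 7 mouse genes that encode NMDA receptor subunits, Grin1, Grin2a, Grin2b, Grin2c, Grin2d, Grin3a and Grin3b, were followed through the lamina-associated domains (LADs) of N2A cells. The members were the subunit genes by name, and all 7 were found among 21523 protein-coding genes of chromosomes 1 to 19 and X. LADs are stretches of chromatin that lie at the nuclear lamina, the protein mesh under the nuclear envelope. DamID finds them with lamin B1 fused to the bacterial enzyme Dam, which methylates adenine in GATC near the places where the fusion protein sits. The study read such marks on Nanopore instruments and, as the established form of the assay, on Illumina instruments, and the comparison here asked whether both methods place these genes alike.

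Of the 10 samples, 7 came from N2A cells, a mouse neuroblastoma line. They were LaminB1-Dam by Nanopore (1 sample), a sample labelled 10% LaminB1-Dam by Nanopore (1), Dam alone by Nanopore (1), a sample labelled Wildtype (1), LaminB1-Dam by Illumina (2) and Dam alone by Illumina (1). The other 3 samples, from human HEK293T cells, carried CTCF-DamN126A (2) or DamN126A alone (1) and were not used. Per the labels' shared protocol, Dam fusions were induced with 2 µg/mL doxycycline, and the labels name no promoter, clone or induction time. The values were 2 deposited consensus lists of LAD intervals with no score and no value per sample. Depth is therefore unknown, no spread between replicates could be computed, and every value below is an overlap of coordinates described without a test. RNA was not measured, so nothing here bears on expression.

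NMDA receptors are ion channels opened by glutamate together with glycine or D-serine. They pass calcium, are blocked by magnesium at rest, and so sense when transmitter release and depolarization coincide, which underlies much of synaptic plasticity. Every receptor holds GluN1, the product of Grin1, with GluN2 or GluN3 subunits that set its kinetics, magnesium block and calcium entry.

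The family split into genes inside LADs and genes outside them, and both methods drew the split at the same place. Grin2a and Grin2b lay wholly inside LADs of both lists, Grin3a lay partly inside, and Grin1, Grin2c, Grin2d and Grin3b had no base in a LAD of either list. With at least 50% of the gene body inside as the rule, 3 of 7 members were in LADs by Nanopore and the same 3 by Illumina (42.9% of the family in each). Among all protein-coding genes, 28.9% passed that rule in Nanopore LADs and 25.4% in Illumina LADs. The family's share was higher in both lists, but 3 of 7 is too few genes to set the family apart from that background. Agreement between the lists was common too: of 21523 protein-coding genes, 5324 passed the rule in both and 15156 in neither. The pair of 0% and 0%, as at Grin1, was found for 14814 other genes (68.8%).

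**Figure D1:**
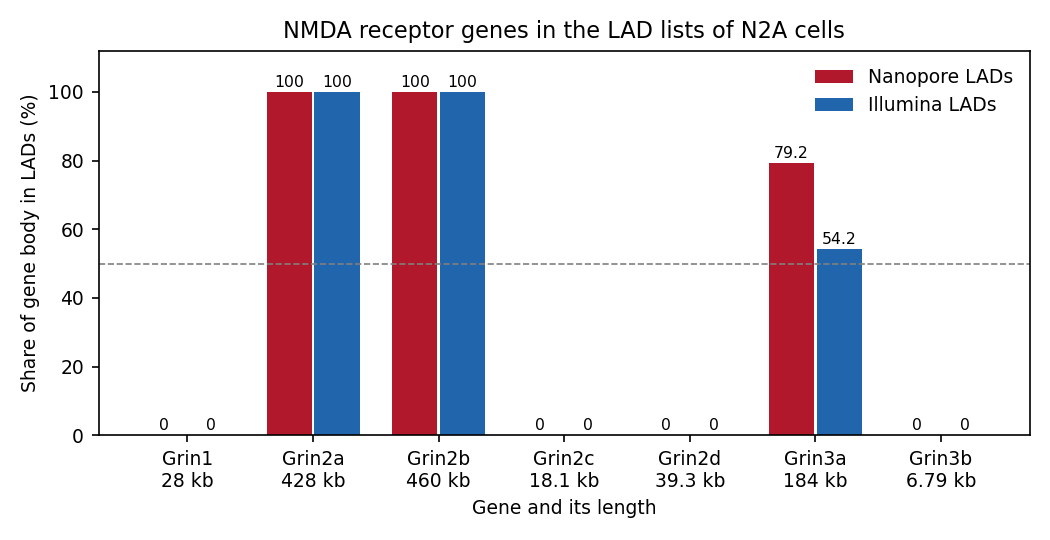
Share of each gene body in LADs (%, vertical axis) for the 7 NMDA receptor genes with their lengths, by Nanopore (red, left bars) and Illumina (blue, right bars); the dashed line marks 50%. Grin2a and Grin2b reach 100% with both methods, Grin3a reaches 79.2% and 54.2%, and the other 4 genes are at 0.

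GluN1, the subunit in every NMDA receptor, comes from Grin1 (NCBI gene 14810; chromosome 2, 25291177 to 25319187, mm10), a gene of 28.0 kb. It had 0% of its body in LADs by Nanopore and 0% by Illumina, and both ends were outside. It sat in a gap between LADs of 11.8 Mb by Nanopore (24520001 to 36320000) and 11.76 Mb by Illumina (24540001 to 36300000). In each list only 1 gap was wider, out of 1154 Nanopore and 1129 Illumina gaps, whose medians were 440 and 420 kb. Within that gap Grin1 was not central. The closest LAD ended 771 kb below the gene by Nanopore and 751 kb by Illumina, and 254 protein-coding genes lay wholly inside the gap with either list. Grin1 overlaps Grin1os, an annotated long non-coding RNA gene of 7.40 kb, and the end of Lrrc26, both at 0% in both lists.

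Promoter windows show what Dam could mark at the start sites of the genes outside LADs. RefSeq windows on GRCm38.p6, the assembly behind mm10, run from 250 bases before the start site to 50 after it; 4 of 7 members had an entry (Grin1, Grin2c, Grin2d and Grin3b), and Grin2a, Grin2b and Grin3a had none. The members with the most and the fewest CG pairs are printed 5′ to 3′ on the gene's strand, with GATC, the sequence that Dam methylates, in capitals.
Grin1 (minus strand, chr2:25319138-25319437): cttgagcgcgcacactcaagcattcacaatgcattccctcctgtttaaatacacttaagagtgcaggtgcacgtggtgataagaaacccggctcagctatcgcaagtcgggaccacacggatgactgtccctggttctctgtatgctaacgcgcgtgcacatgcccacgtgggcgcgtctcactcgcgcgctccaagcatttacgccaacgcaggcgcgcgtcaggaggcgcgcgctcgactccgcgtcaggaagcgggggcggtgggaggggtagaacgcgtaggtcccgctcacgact
Grin3b (plus strand, chr10:79970474-79970773): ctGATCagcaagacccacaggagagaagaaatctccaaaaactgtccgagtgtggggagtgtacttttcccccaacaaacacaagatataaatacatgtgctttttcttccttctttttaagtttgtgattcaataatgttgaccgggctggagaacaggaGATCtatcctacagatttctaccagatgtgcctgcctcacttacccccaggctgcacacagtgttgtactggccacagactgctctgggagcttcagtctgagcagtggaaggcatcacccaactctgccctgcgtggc
The Grin1 window held 33 CG pairs and no GATC, so every letter is in lower case, while the Grin3b window, whose start site (79970724) lies within the annotated gene, held 3 CG pairs and 2 GATC. The Grin2c window had 22 CG and no GATC, and the Grin2d window 12 CG and 1 GATC. Both genes are on the minus strand, and their start sites (115267243 and 45866681) also lie within the annotated genes, whose upper ends are 115267297 and 45871194. GATC reads the same on both strands. Of 21045 windows of the same length at protein-coding genes, which can include several per gene, 46.2% held a GATC. The share was 49.3% for start sites inside and 45.0% for those outside Nanopore LADs, and 49.6% and 45.1% with Illumina LADs. CG pairs differed more: the median window held 3 inside and 17 outside LADs, the same with either list. All 4 start sites were outside LADs in both lists. Grin1 and Grin2c were thus above the median of windows outside LADs, Grin2d below it, and Grin3b at the median of windows inside. A window without GATC does not say that the gene was unmarked, since the lists rest on steps of 20 kb, far wider than the window.

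The GluN2 subunits bind glutamate, and their genes fall on both sides of the split. GluN2B, which predominates before birth in the rodent forebrain, comes from Grin2b (NCBI gene 14812; chromosome 6, 135713221 to 136173615), at 460 kb the longest of the 7 genes. It lay 100% inside a LAD by Nanopore (135440001 to 136380000, 940 kb) and 100% inside a LAD by Illumina (135460001 to 136380000, 920 kb). The lists put the upper border at the same grid position and differed by 20 kb, the width of a grid step, at the lower border. The gene stood 273 kb above the lower border by Nanopore and 253 kb by Illumina, and 206 kb below the upper border with both. Its body took up 49.0% of the Nanopore LAD and 50.04% of the Illumina LAD. Besides Grin2b the LAD wholly held Eif4a3l1, a gene of 2.45 kb that was also 100% inside with both methods. The non-coding genes Gm14329, Gm14330 and Gm26653, which overlap Grin2b, were at 100% in both lists too. The nearest gene below, Emp1, which encodes an epithelial membrane protein, was 330 kb away and outside LADs.

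GluN2A rises after birth and gives mature synapses faster currents. Its gene Grin2a (NCBI gene 14811; chromosome 16, 9567901 to 9996083) spans 428 kb. It lay 100% inside a LAD of 1.2 Mb by Nanopore (9040001 to 10240000) and 100% inside a LAD of 1.24 Mb by Illumina (9020001 to 10260000). The Illumina LAD was here the wider, by 20 kb at each border. Among 824 LADs of each list that overlapped a single LAD of the other and no more, Illumina was wider at both borders in 5.46% and Nanopore in 22.6%, so the Grin2a LAD belongs to a small class. Grin2a stood 528 kb above the lower border by Nanopore and 548 kb by Illumina, and 244 and 264 kb below the upper border. Rpl39l, a ribosomal protein gene copy 174 kb above Grin2a, was wholly in the LAD of both lists. Atf7ip2 (58.1 kb) was wholly inside by Illumina only, through the 20 kb at the upper border. No protein-coding gene had its midpoint in the 500 kb below Grin2a, and the nearest one on that side, 1810013L24Rik, was 709 kb away.

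Both LADs were of ordinary size. The Grin2a LAD was wider than 67.1% of Nanopore and 71.0% of Illumina LADs, and the Grin2b LAD wider than 58.6% and 60.7%. The genes were not unusually deep in them either. The nearer border was 244 kb from Grin2a by Nanopore and 264 kb by Illumina, and 206 kb from Grin2b with both. For all protein-coding genes wholly inside, the median distance was 295 kb by Nanopore (5769 genes) and 263 kb by Illumina (5054 genes). As a pattern of 2 shares, 100% and 100% was common: 4900 other genes (22.8%) had it.

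GluN2C, best known from cerebellar granule cells, comes from Grin2c (NCBI gene 14813; chromosome 11, 115249169 to 115267297), which spans 18.1 kb. It was 0% inside in both lists. It came closer to a LAD than the other 3 genes outside, with a border 189 kb below it by Nanopore and 209 kb below it by Illumina. On the other side the gap ran on for 6453 kb by Nanopore and 6553 kb by Illumina. The gap as a whole was 6.66 Mb wide by Nanopore (115060001 to 121720000) and 6.78 Mb by Illumina (115040001 to 121820000), with 11 wider gaps by Nanopore and 19 by Illumina. Of 41 protein-coding genes in the 500 kb on either side, 14 were in LADs by Nanopore and 12 by Illumina, all of them below the gene. Among all protein-coding genes the shares in LADs were 28.9% and 25.4%, so these counts do not set its surroundings apart. Its direct neighbours Tmem104, 2.14 kb below, and Fdxr, the ferredoxin reductase gene 0.727 kb above, were at 0% in both lists.

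GluN2D gives receptors that close slowly and is found early in development and in interneurons. Its gene Grin2d (NCBI gene 14814; chromosome 7, 45831883 to 45871194) spans 39.3 kb, had 0% of its body in LADs by either method, and lay farther from any LAD than the other members. The nearest LAD began 1309 kb above the gene in both lists. The methods differed on the far side. The gap reached down to 43260001 by Nanopore and to 44180001 by Illumina, so it was 3.92 Mb wide by Nanopore and 3 Mb by Illumina. Its neighbours Grwd1, a ribosome assembly factor gene 0.889 kb below, and Kdelr1, which encodes a retrieval receptor of the secretory pathway 1.65 kb above, were also at 0%.

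**Figure D2:**
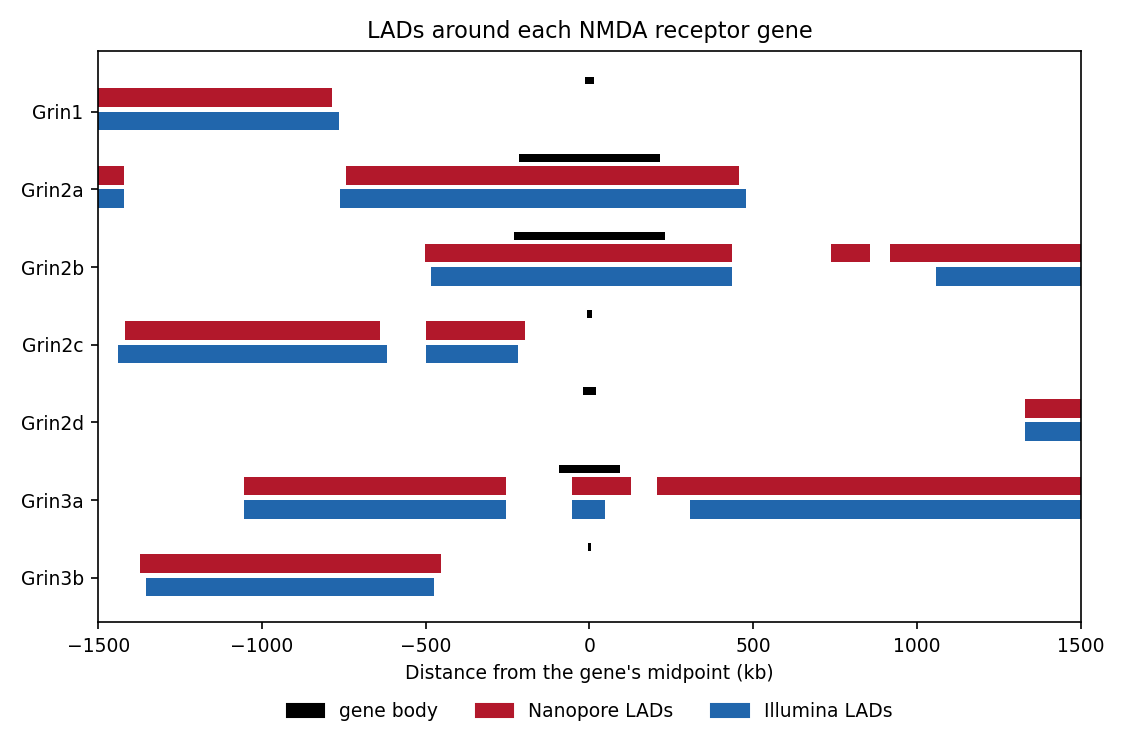
LADs within 1500 kb of each gene's midpoint (horizontal axis, kb), with the gene body in black, Nanopore LADs in red and Illumina LADs in blue below them. Grin2a and Grin2b are enclosed by LADs with like borders in both lists, Grin3a overlaps a narrow LAD, and Grin1, Grin2c, Grin2d and Grin3b sit in gaps, with the nearest LAD 189 kb (Grin2c) to 1309 kb (Grin2d) away by Nanopore.

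The GluN3 subunits bind glycine and not glutamate, and lower calcium entry where they join a receptor. GluN3B is known from motor neurons. Its gene Grin3b (NCBI gene 170483; chromosome 10, 79970397 to 79977190) is the shortest of the family at 6.79 kb, less than 1 grid step of the lists, and was 0% inside in both. The nearest LAD ended 450 kb below it by Nanopore and 470 kb by Illumina. The gap was 2.36 Mb wide by Nanopore (79520001 to 81880000) and 2.94 Mb by Illumina (79500001 to 82440000). Around it stood 59 protein-coding genes within 500 kb on either side, of which 1 was in a LAD in each list. Among all protein-coding genes 28.9% were by Nanopore and 25.4% by Illumina. Its neighbours Wdr18 and Cnn2 and the overlapping gene Tmem259 were at 0%.

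GluN3A, most abundant in the juvenile brain, comes from Grin3a (NCBI gene 242443; chromosome 4, 49661611 to 49846023, 184 kb), the member on which the methods differed. By Nanopore 79.2% of its body (146 kb) was in a LAD, against 54.2% (100 kb) by Illumina. Both lists opened the LAD at 49700001. Nanopore closed it at 49880000, beyond the gene's upper end, for a width of 180 kb, and Illumina at 49800000, within the gene, for a width of 100 kb. The upper end of Grin3a was therefore inside by Nanopore, 34.0 kb from the border, and outside by Illumina, 46.0 kb from it. The lower end was outside in both lists, 38.4 kb from the border.

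From its lower end Grin3a thus ran through 3 stretches. The first 38.4 kb were in no LAD, the next 100 kb were in LADs of both methods, and the last 46.0 kb were in the Nanopore LAD only. Ppp3r2, a short gene for a calcineurin regulatory subunit that is annotated within Grin3a, fell in the first stretch (49678747 to 49681983) and was at 0% in both lists. So was Rnf20, a ubiquitin ligase gene 4.72 kb below Grin3a. Above Grin3a the next protein-coding gene, Cylc2, which encodes a sperm head protein, was 1371 kb away and 100% inside with both methods.

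The Grin3a LAD was narrow and near larger ones. It was wider than 14.4% of LADs by Nanopore and than 5.57% by Illumina. A LAD of 800 kb lay 200 kb below it in both lists. Above it, the next LAD followed after 80 kb by Nanopore (49960001 to 52980000, 3020 kb) and after 260 kb by Illumina (50060001 to 52420000, 2360 kb). The Nanopore list thus held more of this region at 2 borders, the upper border of the Grin3a LAD and the lower border of the next one. With each LAD narrowed by 20 kb at both borders, Grin3a fell under 50% by Illumina, to 32.5%, and held 68.3% by Nanopore.

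**Figure D3:**
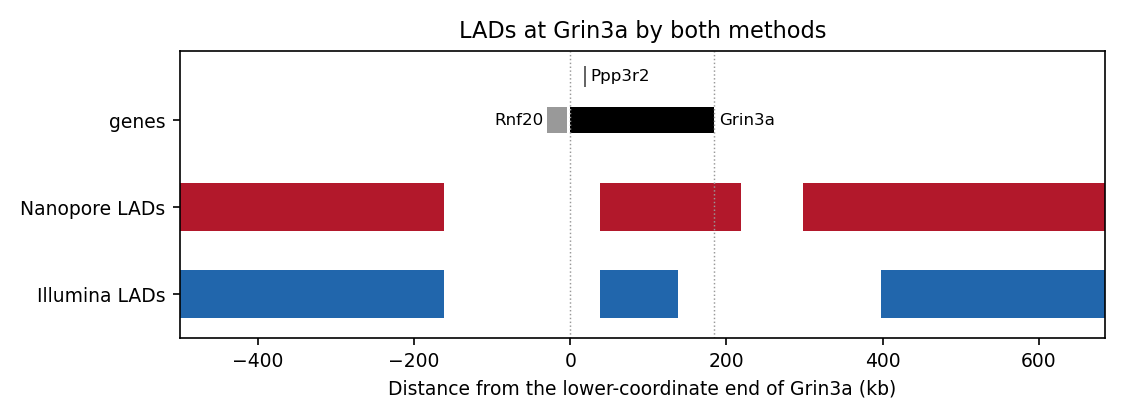
Grin3a with the genes Ppp3r2 and Rnf20 (top), Nanopore LADs (red) and Illumina LADs (blue) by distance from the gene's lower-coordinate end (horizontal axis, kb); dotted lines mark the gene's ends. The narrow LAD over the gene opens at the same place in both lists and is 180 kb wide by Nanopore and 100 kb by Illumina.

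A difference of this size was uncommon among all long genes, most of which had identical shares. Among the long genes whose shares differed at all, it was far less rare. Grin3a differed by 25.0 percentage points between the lists. Of 2425 protein-coding genes of 100 kb or more, 1957 (80.7%) had identical shares. A difference of at least 20 points was found for 241 (9.94%), of which 223 (9.20% of the 2425) were higher by Nanopore. An upper end inside Nanopore LADs and outside Illumina LADs was found for 895 of all protein-coding genes (4.16%), and the reverse for 155 (0.720%). For lower ends the numbers were 953 (4.43%) and 160 (0.743%). Long genes more often had 1 end inside LADs and 1 outside. By Nanopore these were 15.9% of genes of 100 kb or more against 3.40% of all genes, and by Illumina 13.2% against 2.97%. By the 2 shares, the genes most like Grin3a were Dock3 on chromosome 9 (80.2% by Nanopore, 53.0% by Illumina), Ston2 on chromosome 12 (78.2% and 52.1%) and Gnal on chromosome 18 (80.7% and 51.8%). Their distances to Grin3a were 1.59, 2.30 and 2.86 percentage points over the 2 lists, a likeness of overlap with intervals and no more.

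The split followed gene length. The 3 members in LADs were 184 to 460 kb long, longer than 94.9% (Grin3a), 98.6% (Grin2a) and 98.8% (Grin2b) of protein-coding genes. The 4 members outside were 6.79 to 39.3 kb long and did not overlap them in length. Among all protein-coding genes the share in LADs was higher for long genes, and far from complete: 41.2% of genes of 100 kb or more by Nanopore and 36% by Illumina, against 21.5% and 17.8% of those of 20 to 100 kb, and 31.2% and 28.1% of those under 20 kb. The members were thus 3 of 3 in the longest class, 0 of 2 (Grin1 and Grin2d) in the middle class and 0 of 2 (Grin2c and Grin3b) in the shortest.

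Gene density went the same way. Within 500 kb on either side, 6 other protein-coding genes surrounded Grin2a, 8 Grin2b and 9 Grin3a. The numbers were 60 for Grin1, 59 for Grin3b, 48 for Grin2d and 41 for Grin2c. For all protein-coding genes the median was 16, with 12 for genes in LADs and 17 for genes outside with either list. All 4 members outside LADs were therefore in denser surroundings than 89.4% (Grin2c) to 98.8% (Grin1) of protein-coding genes. The 3 members in LADs had fewer neighbours than the median gene in LADs. Length and density moved together with LAD status across the 7 genes, and their separate parts were not tested.

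The members sat on 7 different chromosomes, so none shared a LAD or a neighbourhood with another. The share of the chromosome in LADs did not separate the members inside from those outside, as chromosome 4 had less in LADs than 3 of the 4 chromosomes of members outside by Nanopore and than 2 of the 4 by Illumina. By Nanopore it was 60.7% for chromosome 16 (Grin2a), 61.3% for chromosome 6 (Grin2b) and 52.5% for chromosome 4 (Grin3a). For the members outside it was 53.7% for chromosome 2 (Grin1), 44.8% for chromosome 11 (Grin2c), 55.4% for chromosome 7 (Grin2d) and 59.0% for chromosome 10 (Grin3b). By Illumina the shares were 57.4%, 58.4% and 50.2% for the chromosomes of Grin2a, Grin2b and Grin3a, and 45.7%, 41.5%, 52.3% and 53.1% for those of Grin1, Grin2c, Grin2d and Grin3b.

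Set beside the other glutamate receptor genes, the NMDA receptor genes were the shorter family. Their median length was 39.3 kb, against 319 kb for 17 AMPA, kainate, delta and metabotropic receptor genes. Of those 17, 11 passed the 50% rule by Nanopore (64.7%) and 10 by Illumina (58.8%), against 28.9% and 25.4% of all protein-coding genes. By class these were 3 and 3 of 4 AMPA genes, 2 and 1 of 5 kainate genes, the delta receptor gene Grid1 with both methods and 5 and 5 of 7 metabotropic genes. Gria2, which encodes the AMPA receptor subunit that limits calcium entry, was wholly inside with both methods, as were Gria4, Grik2, Grm5, Grm7 and Grm8.

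In the related families length and LAD status did not always go together. Of the 13 other receptor genes of 100 kb or more, 10 were in LADs by Nanopore and 9 by Illumina, which compares with 3 of 3 members. Among all protein-coding genes of 100 kb or more the shares were 41.2% and 36%. Gria3, Grik3 and Grik4, at 224 to 427 kb, lay wholly outside with both methods, and Grik4 was nearly as long as Grin2a. Grm6, the glutamate receptor of retinal ON bipolar cells, was 100% inside with both methods at 15.8 kb, shorter than Grin2c. Grik1 was the only gene of the 17 called by 1 method, with 83.8% inside by Nanopore and 33.1% by Illumina, a wider gap than at Grin3a. The Nanopore list was not higher throughout: Grid1 had 76.4% by Nanopore and 97.4% by Illumina, and Grm3 85.5% and 100%.

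**Figure D4:**
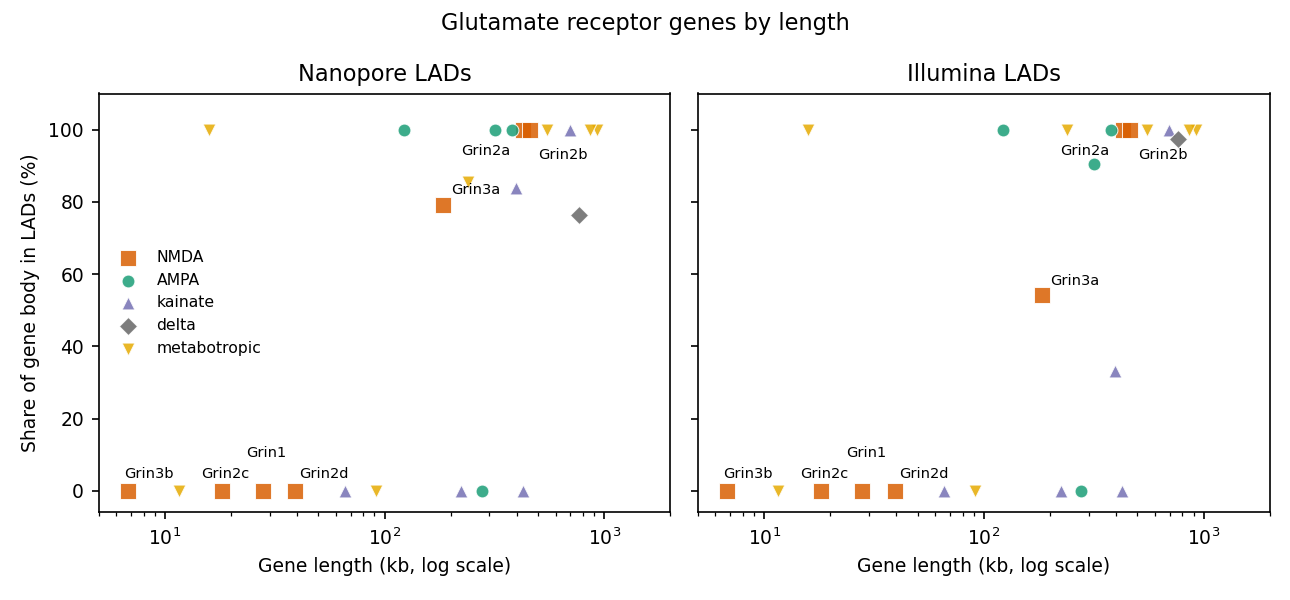
Gene length (kb, log scale) against the share of the gene body in Nanopore LADs (left) and Illumina LADs (right) for the 7 NMDA receptor genes (squares, named) and 17 other glutamate receptor genes by class. The 4 short NMDA receptor genes lie at 0 and the 3 long ones between 54.2% and 100%, while 3 other receptor genes of 224 to 427 kb lie at 0.

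The genes listed here as partners of NMDA receptors lay mostly outside LADs, as did protein-coding genes at large. Of 35 such genes, 8 passed the rule by Nanopore (22.9%) and 7 by Illumina (20%), near the 28.9% and 25.4% of all protein-coding genes. In the class of 100 kb or more, 6 of 14 partner genes passed by Nanopore and 5 by Illumina. Among all protein-coding genes of that class, 41.2% and 36% did. With the whole body inside as the rule, the partner genes in LADs numbered 6 by Nanopore (17.1%, against 26.8% of all genes) and 2 by Illumina (5.71%, against 23.5%). When any overlap counted, they were 11 by Nanopore (31.4%, against 30.4% of all genes) and 10 by Illumina (28.6%, against 26.6%). The side of the background on which they fell thus depends on the rule. Scaffold genes of the postsynaptic density had 3 and 2 of 14. Dlgap1 (83.4% in both) and Dlgap2 (63.4% by Nanopore, 68.6% by Illumina) were inside. Dlg4, which encodes PSD-95, the scaffold that GluN2 tails bind, was at 0% in both, like Shank1 and Shank3. Homer1 was 100% inside by Nanopore and 0% by Illumina, the only partner gene called by a single method. Shank2 came near the limit by Nanopore, at 49.5%, against 13.8% by Illumina, and Dlg2 in both, at 48.7% and 46.6%.

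Signalling genes had 1 of 9 in each list, Rasgrf1 (100% by Nanopore, 91.1% by Illumina), whose product links calcium entry to Ras. The 4 Camk2 genes, which encode the calcium- and calmodulin-dependent kinase that binds GluN2B, were at 0% in both, as were Nos1, Src and Fyn. Among genes for co-agonists and transport 3 of 8 were inside in each list, all of them glutamate transporters: Slc1a2 (100% in both), Slc1a1 (100% by Nanopore, 82.3% by Illumina) and Slc1a3 (100% and 92.3%). Srr, which makes the co-agonist D-serine, and Slc6a9, a glycine transporter, were at 0%. Of the 4 genes grouped here as auxiliary, whose ties to NMDA receptors were not examined, Neto1 was 100% inside with both methods. Neto2, Nsg1 and Nsg2 were at 0%.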

How the data were processed

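Genomic DNA of N2A cells was profiled by DamID, with 2.5 µg per Nanopore library per the labels' protocols. The authors deposited LADs as interval coordinates without scores. Per the submitters' processing notes, which give no roles, minimap2, SAMtools, deepTools, bedtools and the builds mm10 and hg38 were used. The sources used here do not say how LADs were called or whether the 10% LaminB1-Dam sample entered the Nanopore list. The lists hold 1210 Nanopore and 1190 Illumina intervals, 1174 and 1149 of them on chromosomes 1 to 19 and X, with all borders on a 20 kb grid.

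Gene coordinates came from RefSeq on GRCm38.p6, without strand or exons, so gene ends are called lower or upper by coordinate. The 340 genes listed below 3 Mb were left out as unplaced. A gene counted as in LADs with at least 50% of its body inside. No test was run, as the lists hold no values per sample. Members and lists were chosen with earlier results of these data known. Named genes are the members, their nearest neighbours, up to 3 genes wholly inside the same LAD, genes of the receptor and partner lists and, for Grin3a, the 3 genes with the nearest pair of shares; genes overlapping a member were added after their values were seen. Some genes of these lists are not reported here and are in no count of them. The overlap code was tested on simulated data. Python 3.11.15, numpy 2.4.6, pandas 2.3.3 and matplotlib 3.10.9 were used.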

Additional observations from a re-analysis of the deposited data

How the results depend on the processing

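The shares of Grin1, Grin2a, Grin2b, Grin2c, Grin2d and Grin3b did not move under any of the 5 changes to the LADs in either list (only LADs of at least 100 kb, merging at gaps of up to 40 or 100 kb, borders moved out or in by 20 kb). This was fixed in advance. The nearest border was 189 kb (Grin2c, Nanopore) or more away from each of these genes, beyond the 20 kb shifts. The LADs of Grin2a and Grin2b were 920 kb or wider, and the gaps holding the other genes 2.36 Mb or wider. Grin3a moved with the borders. Its share was 90.0% by Nanopore and 75.9% by Illumina with LADs widened by 20 kb, and 68.3% by Nanopore and 32.5% by Illumina with LADs narrowed, which left 2 of 7 members past 50% by Illumina; the share follows from the shifted borders. Dropping or merging LADs did not move it, and could not. The Illumina LAD, at 100 kb, stood exactly at the width limit. The gaps below and above the LAD were 200 and 260 kb by Illumina, and 200 and 80 kb by Nanopore. Only the 80 kb gap was merged, and it lies above the gene. Counted by the gene's start site, 0 of 4 members with a promoter entry were in LADs of either list. This follows from the 3 members inside having no entry. Of 11 other receptor genes with an entry, 7 were in LADs in each list (63.6%). Of 17274 protein-coding genes with an entry, 28.7% were by Nanopore and 25.4% by Illumina. By the 50% rule 8 of 35 partner genes were in LADs by Nanopore and 7 by Illumina. They numbered 6 and 2 when the whole body had to be inside (17.1% and 5.71%, against 26.8% and 23.5% of all protein-coding genes). They were 11 and 10 when any overlap counted (31.4% and 28.6%, against 30.4% and 26.6%). With LADs widened by 20 kb they were 10 and 7 (28.6% and 20%, against 31.0% and 27.3%). No paired analysis was possible because the lists carry no values per sample. With no counts in the files, what depth limits could not be judged.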
